A study of Mus musculus with 10 samples.

Results

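The transcriptome of glomeruli from diabetic mice was compared with that of glomeruli from non-diabetic mice, all of them injected with saline only. The comparison used 7 of the 10 libraries of the series, 4 diabetic saline and 3 non-diabetic saline, chosen by their labels. It covered the 7783 of 12934 genes in the table with a value of at least 10 normalized counts in at least 3 of these 7 libraries. All mice were wildtype DBA/2J, an inbred strain that the labels call susceptible to diabetic kidney disease, and 17 weeks old when their glomeruli were isolated. Every animal received a hydrodynamic injection of saline at 7 weeks of age, a rapid large-volume injection into the circulation, and carried no plasmid or transposase. Streptozotocin, a toxin of pancreatic beta cells, was given from 8 weeks of age to the diabetic group, and vehicle to the non-diabetic group. The labels give a diet with 60% fat for the diabetic mice only, started after a further 4 weeks and eaten for 5 weeks. Diabetes and diet therefore cannot be told apart here, and the diet of the control mice is not stated. The study's text speaks of 10 weeks of diabetes. No label says whether a library is 1 animal, so the p-values measure the spread between libraries.

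A glomerulus is a tuft of capillaries that filters the blood. Its wall is built by fenestrated endothelium, a basement membrane and the foot processes of podocytes, and mesangial cells hold the tuft together. Interferons are signals that cells release when receptors such as those for double-stranded RNA or cytosolic DNA are engaged, and their receptors act through transcription factors of the STAT and IRF families to switch on antiviral genes. Many of these genes carry an interferon-stimulated response element in the promoter. The nuclear subunits of the respiratory chain are used most heavily in the kidney by tubule cells, which spend energy on sodium transport through the Na,K-ATPase.

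The 7 libraries held 3931712 to 11300629 reads, and the ribosomal RNA precursor Rn45s took 83.9% to 86.7% of them, so 338549 to 962321 reads were left for all other genes except Lars2 and Mir6236. One read was worth 0.619 to 1.77 normalized counts. Of the listed glomerular markers, 38 of 41 podocyte, 34 of 43 endothelial and 22 of 30 mesangial ones passed the filter on low values. Their mean log2 value over 93 genes was 6.86 to 7.13 in non-diabetic and 6.47 to 6.85 in diabetic saline, so that the diabetic libraries lay lower without overlap. Tubule genes were present in all 7 libraries. Many tubule markers passed the same filter, so passing it cannot tell glomeruli from tubule. The 19 tested markers of the loop of Henle and distal tubule had a mean log2 value of 5.21 to 6.59 in non-diabetic saline. In diabetic saline this mean was 6.45 to 7.21.

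At an adjusted p under 0.05 in limma, 301 genes rose in diabetic saline (3.87% of those tested) and 150 fell (1.93%). The rises were also the larger changes: 183 genes rose at least 2-fold and 44 at least 4-fold, against 49 and 3 genes that fell by as much. The median fold was 2.13 among genes that rose and 1.83 among genes that fell, while the median log2 difference of all tested genes was -0.01. The libraries of the groups did not overlap in 16.9% of all tested genes, and they overlapped in 20 of the genes that rose and 6 of those that fell. Calls that had no overlap and also passed when any 1 of the 7 libraries was left out made up 48.8% of the rises and were 38 of the falls. Without non-diabetic saline replicate 1 or 2 the number that fell was 68, and without diabetic saline replicate 3 it was 87. It was 92 without non-diabetic saline replicate 3. The genes that rose numbered 202 to 299 in the same fits. Both edgeR and DESeq2, run on the recovered reads, shared the calls of 262 of the 301 and 129 of the 150. The limma fit took its spread from all 10 libraries of the series. In a fit of the 7 saline libraries alone 241 genes rose and 129 fell.

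**Figure D1:**
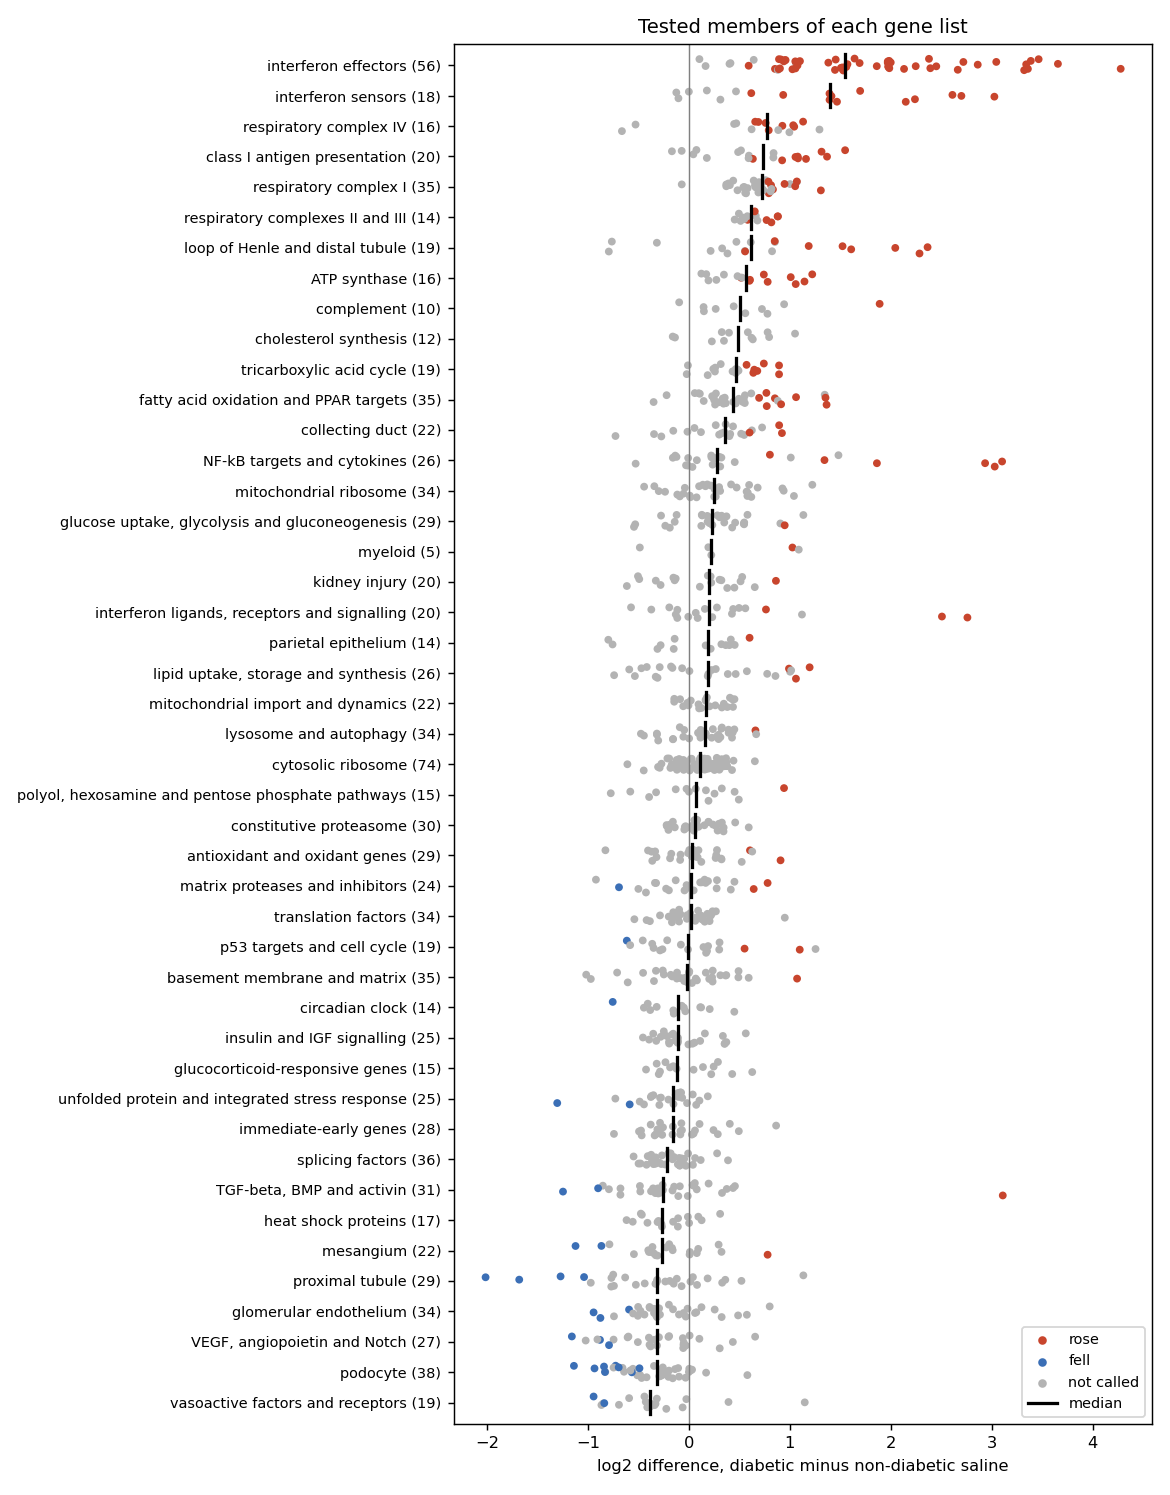
Each point is a tested gene, placed by its log2 difference (diabetic minus non-diabetic saline) in the row of its list, with the number of tested members in brackets and a black bar at the median. Lists with at least 5 tested members are ordered by median; the interferon effectors (1.55) and sensors (1.39) are at the top and the vasoactive genes (-0.38) at the bottom.

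Among 18 tested sensors of nucleic acids that interferon induces, 12 rose and none fell, with a median log2 difference of 1.39. Of the 18, Dhx58 and Zbp1 passed the filter through the diabetic libraries alone. Ifih1, which encodes MDA5, a receptor for long double-stranded RNA, had 13.001, 23.6 and 14.96 normalized counts in the non-diabetic and 85.6, 101, 79.2 and 67.3 in the diabetic libraries. It rose 4.73-fold (log2 2.24, SE 0.22, adjusted p = 6.3e-07). Its groups did not overlap, which the rule for naming genes required of the members it took. All fitted folds come from log2(value + 1), so they are too small for genes with low values. Dhx58, encoding LGP2, a partner of MDA5, rose 6.11-fold from 3.71, 0.907 and 8.73 to 23.997, 26.8, 37.04 and 19.5 normalized counts. Ddx58, which encodes the RNA receptor RIG-I, rose 2.77-fold, and Eif2ak2, encoding the double-stranded RNA kinase PKR, 2.63-fold.

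Sensors of DNA and of unusual nucleic acid rose with the RNA receptors. Ifi204, a member of the family of DNA-binding PYHIN proteins, had 15.5, 16.3 and 23.7 normalized counts in the non-diabetic and 86.4, 88.8, 70.6 and 92.1 in the diabetic libraries (log2 2.15, SE 0.20, adjusted p = 3.8e-07). Its relative Ifi202b rose 6.5-fold, and here non-diabetic saline replicate 3 (39.9) stood above replicates 1 and 2 (8.67 and 10.9) while all 4 diabetic libraries were at 99.1 or more. These genes lie in a family of similar sequence in which strains carry variants, so their reads may be shared. Zbp1, a sensor of left-handed nucleic acid, held 6 reads in the 3 non-diabetic and 85 in the 4 diabetic libraries, a ratio of 12.3 per unit of depth (exact 95% counting interval 5.42 to 34.4). The adaptors and kinases that carry the signal onward had other values: Mavs (-0.10), Ticam1 (0.00), Tbk1 (0.18) and Tmem173, which encodes STING (0.31), did not pass the test on these log2 differences.

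Of 20 tested genes of interferon ligands, receptors and signal transduction, 3 rose, Irf7 and Usp18 among them. Irf7, the transcription factor that amplifies type I interferon production, had 21.7, 25.4 and 31.2 normalized counts in the non-diabetic libraries and 136, 181, 185 and 115 in the diabetic ones. It rose 5.69-fold (log2 2.51, SE 0.19, adjusted p = 5.1e-08). Usp18, a protease that removes ISG15 and restrains the interferon receptor, went from 8.05, 11.8 and 7.48 to 55.2, 84.2, 75.8 and 54.9 (6.78-fold). Neither gene's groups overlapped, which the rule for naming genes required. The list as a whole had a median log2 difference of 0.20. Genes for the interferons Ifnb1, Ifna4, Ifng, Ifnl2 and Ifnl3 had no row in the table, so their RNA is not analysed here.

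The effectors made up the largest block: 49 of 56 tested members rose (87.5%), none fell, and the median log2 difference was 1.55. Of 65 members with a row 9 did not pass the filter, and 9 of the 56 passed it with no non-diabetic library at 10, so their higher value was a condition of being tested, and the share and the median describe the tested members only. The 3 interferon lists together held 64 of the 301 genes that rose and 30 of the 50 with the largest rise. Rsad2, which encodes the antiviral enzyme viperin, had 59.4, 76.2 and 101 normalized counts in the non-diabetic and 562, 954, 927 and 788 in the diabetic libraries (log2 3.34, SE 0.18, adjusted p = 2.8e-10). Its neighbour on the chromosome, Cmpk2, a mitochondrial nucleotide kinase, went from 11.8, 25.4 and 21.2 to 106, 185, 199.8 and 101 (7.27-fold). In both, the lowest diabetic library lay far above the highest non-diabetic one.

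The Ifit genes, whose proteins bind viral RNA, rose by 5.25-fold (Ifit1) to 10.3-fold (Ifit2). Ifit3 had 27.2, 62.6 and 62.3 normalized counts in the non-diabetic and 278, 368, 345 and 290.3 in the diabetic libraries (log2 2.72, SE 0.22, adjusted p = 1.1e-07). I830012O16Rik, a gene on the same chromosome that no list held under this name, went from 6.81, 14.5 and 17.5 to 79.2, 135, 131 and 90.3 (8.19-fold). The listed effector Ifit3b had no row under its own name, and the counts of the lists leave I830012O16Rik out. Because the members resemble each other, reads may be shared among them.

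Large GTPases that act on the vacuoles of intracellular microbes were also among the genes that rose. Gbp8 had 8.67, 6.35 and 12.5 normalized counts in the non-diabetic and 72.8, 164, 90.4 and 101 in the diabetic libraries (log2 3.39, SE 0.29, adjusted p = 1.7e-07), and diabetic saline replicate 2 was the highest. Gbp6 rose 6.34-fold and Gbp3 4.39-fold, whereas Gbp4 (log2 0.40) and Gbp9 (log2 1.06) did not pass the test. Reads may also be shared between these paralogs. The predicted gene Gm12250, outside every list, had the largest fold of the genes that the naming rule took for their rise: 5.57, 3.63 and 9.97 normalized counts in the non-diabetic and 55.99, 87.9, 87.9 and 70.8 in the diabetic libraries, or 10.9-fold (SE 0.30 on the log2 scale, adjusted p = 1.6e-07). All non-diabetic values of Gm12250 were under 10, so it passed the filter through the diabetic libraries alone. Its higher value there was a condition of being tested. Trim30a, a member of the TRIM family of ubiquitin ligases, went from 16.7, 12.7 and 24.9 to 90.4, 99.95, 102 and 108 (5.47-fold).

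Genes with 3 reads or fewer in each non-diabetic library could be tested only because the diabetic libraries passed the filter, so their ratios describe genes that had to be higher there. Ifi27l2a held 3 reads in the 3 non-diabetic libraries together and 132 in the 4 diabetic ones, a ratio of 38.2 per unit of depth (exact 95% counting interval 12.8 to 187.5). For Slfn2, a regulator of immune cell quiescence, the 3 non-diabetic libraries held 1, 2 and 3 reads and the 4 diabetic ones 37, 40, 54 and 15 (ratio 21.1, interval 9.47 to 58.5). Mx1, an antiviral GTPase, had 2 and 57 reads (ratio 24.7, interval 6.54 to 209). Isg20, an exonuclease that degrades viral RNA, had 7 and 113 reads (ratio 14.01, interval 6.58 to 35.6). Ddx60, an RNA helicase, and Apol9a, both outside the lists, had 6 and 72 and 3 and 57 reads in turn, with ratios of 10.4 (interval 4.56 to 29.3) and 16.5 (interval 5.36 to 82.3). The intervals cover counting error only.

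Stretches of promoter from 6 interferon genes that rose are shown because they hold the response element, here taken as GAAANNGAAA on either strand within 250 bases before the annotated start. They were chosen as the 6 with the largest rise among list members with a match, and the capitals mark the matches, which may overlap each other. All are RefSeq sequences of build GRCm38.p6, given 5′ to 3′ on the strand of the gene, and the deposited values were made on another build.
Rsad2, chr12:26456533-26456602, minus strand: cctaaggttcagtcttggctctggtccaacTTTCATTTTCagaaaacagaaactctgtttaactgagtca
Ifit3, chr19:34583373-34583446, plus strand: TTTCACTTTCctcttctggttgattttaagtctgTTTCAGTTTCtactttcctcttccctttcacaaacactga
Trim30a, chr7:104465194-104465259, minus strand: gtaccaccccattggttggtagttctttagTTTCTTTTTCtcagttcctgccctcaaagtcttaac
Ifit1, chr19:34640774-34640843, plus strand: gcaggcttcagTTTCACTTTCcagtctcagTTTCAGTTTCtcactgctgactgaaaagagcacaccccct
Oas1a, chr5:120907526-120907569, minus strand: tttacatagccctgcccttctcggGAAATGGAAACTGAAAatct
Gbp3, chr3:142559975-142560043, plus strand: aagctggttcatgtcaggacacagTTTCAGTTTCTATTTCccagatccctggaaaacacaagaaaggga

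In Rsad2, Ifit3, Trim30a, Ifit1 and Gbp3 the element lies on the strand opposite to the gene. The match nearest the start began 14 bases before it in Oas1a, 36 in Trim30a, 39 in Gbp3, 85 in Ifit1, 120 in Rsad2 and 122 in Ifit3. Over all 32851 promoter windows of the table, 2.98% held a match, as did 2.08% of the windows of tested genes that were not called. The share was 31% among windows of interferon list genes that rose (18 of 58) and 8.96% among windows of the other genes that rose (19 of 212). Interferon list genes that were tested and did not rise had 13.3% (4 of 30). For genes that fell it was 3.33%. The gamma-activated site TTCNNNGAA, a palindrome bound by STAT dimers, was found in 7.02% of all windows, 19% of those of interferon genes that rose and 20% of those of interferon genes that were tested and did not rise. A match is a description of the letters in the window only.

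Genes that load peptides on MHC class I were higher as well, with 9 of 20 tested members called and none lower. B2m, the light chain, had 118, 178 and 171 normalized counts in the non-diabetic and 257, 396, 396 and 531 in the diabetic libraries (log2 1.32, SE 0.21, adjusted p = 0.00047). H2-K1, a classical heavy chain, went from 228, 282 and 278 to 549.5, 724, 688 and 430.2, and the non-classical H2-T23 from 48.9, 56.2 and 44.9 to 105, 168, 153 and 106. Members taken by the rule for naming genes had to have groups that do not overlap. Reads of these polymorphic paralogs may be shared. Nlrc5, the transactivator of class I genes, rose 1.91-fold. Psmb8, a catalytic subunit of the immunoproteasome, rose 2.12-fold, a call lost when diabetic replicate 3 (adjusted p = 0.0547) or non-diabetic replicate 1 (adjusted p = 0.0743) was left out, while its partners Psmb9 (log2 0.84) and Psmb10 (log2 0.59) did not pass. None of the 30 constitutive proteasome subunits was called by limma, edgeR or DESeq2, 1 had an unadjusted p under 0.05, and their median log2 difference was 0.07.

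Cd274, which encodes the checkpoint ligand PD-L1, was in no list and was singled out after its values were seen. Its non-diabetic libraries had 38.4, 40.8 and 54.8 normalized counts and its diabetic libraries 186, 253, 202 and 214 (log2 2.24, SE 0.17, adjusted p = 4e-08). Among 26 tested NF-kB targets and cytokines 6 rose, and 3 of these, Cxcl10, Cxcl11 and Tnfsf10, are also known to respond to interferon. Cxcl10, a chemokine for activated T cells, had 24.8, 18.1 and 33.7 normalized counts in the non-diabetic and 137, 322, 356 and 150.5 in the diabetic libraries (log2 3.10, SE 0.28). Il6, an inflammatory cytokine, went from 49.5, 59.9 and 69.8 to 128, 144.4, 180.02 and 159 (2.54-fold, adjusted p = 2.7e-05). The list's median log2 difference was 0.27.

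**Figure D2:**
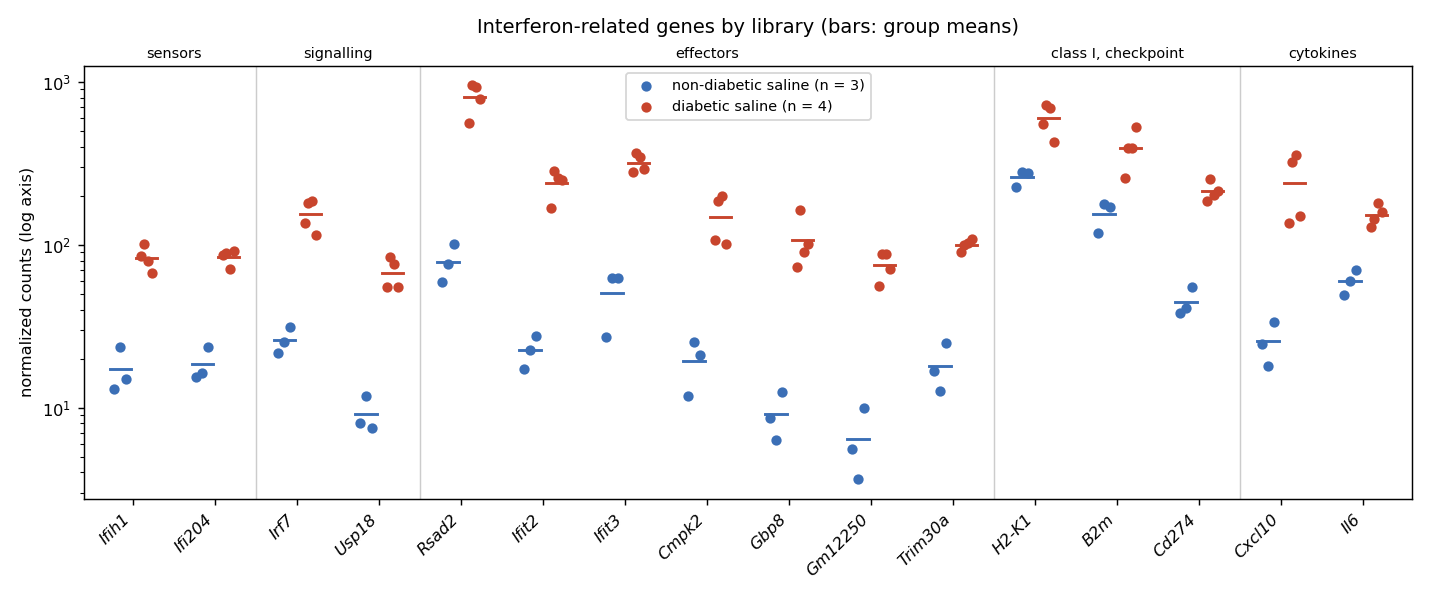
Normalized counts (log axis) of sensors, signalling genes, effectors, class I genes with the checkpoint ligand, and cytokines. Each point is a library and each bar a group mean; most genes were chosen for groups that do not overlap, and the 4 diabetic libraries differ most from each other in Cxcl10, at 137 to 356.

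Markers of leukocytes were sparse beside these genes. Of 26 listed myeloid markers 17 had a row and 5 passed the filter, and the 17 summed to 189 to 221 normalized counts in non-diabetic and 218 to 298 in diabetic saline. Tyrobp, Cx3cr1, Ccr2, S100a8 and S100a9 had no row. Cd74 was the only myeloid marker called by limma (2.04-fold), and its call ended without diabetic saline replicate 1, 2 or 3 and without non-diabetic saline replicate 1 or 2. H2-Ab1 (log2 1.09, groups without overlap) just missed the limma threshold (adjusted p = 0.0515), and edgeR called it (adjusted p = 0.043). Csf1r (log2 0.19), Cd14 (0.22) and Mrc1 (-0.49) were not called. Of 23 lymphocyte markers 3 had a row, summing to 12.7 to 26.6 in non-diabetic and 6.89 to 12.03 in diabetic saline. Cd3d, Cd4, Cd8a and Cd79a had none. In such bulk samples more cells of a type and more RNA per cell cannot be told apart.

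The number of interferon calls stayed close to the 49 effectors and 12 sensors under terms for glomerular and distal tubule markers. With a term for each library's mean of glomerular markers, 48 effectors were called, and with a term for its mean of distal tubule markers 47 were. After adjustment for transcript length and GC content the number was 46. For the sensors these counts were 10, 10 and 11. No fit held a term for leukocytes or the proximal tubule, and the part of cell makeup in these rises was not tested.

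Nuclear genes of each respiratory complex were among those that rose, and none was called lower. In complex I, which takes electrons from NADH, 8 of 35 tested subunits rose and 34 had a positive difference, with a median log2 difference of 0.72. Ndufc2 had 21.05, 20.9 and 23.7 normalized counts in the non-diabetic and 41.6, 49.1, 51.7 and 46.03 in the diabetic libraries (log2 1.07, SE 0.20, adjusted p = 0.0019). In complexes II and III, 6 of 14 rose (median 0.62). Among them was Cyc1, the cytochrome c1 subunit, which went from 56.96, 60.8 and 62.3 to 115, 132, 121 and 83.2 normalized counts (1.84-fold).

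Of the 16 genes of complex IV, cytochrome c oxidase, 8 rose, with a median log2 difference of 0.78. Cox5b had 82.3, 81.6 and 56.1 normalized counts in the non-diabetic and 171, 154, 162 and 152 in the diabetic libraries (log2 1.13, SE 0.17, adjusted p = 0.00019). The assembly factors Cox15 (log2 -0.66) and Surf1 (log2 -0.53) were the members with negative differences, and neither passed the test. ATP synthase had 9 risers among 16 (median 0.56), such as Atp5h, which went from 67.5, 58.04 and 67.3 to 128, 110.1, 119.7 and 169.96 (2.01-fold). The call counts moved by over 1.5 times with single libraries. Complexes II and III had 3 calls without diabetic saline replicate 1 or 3 or non-diabetic saline replicate 3. Complex IV had 5 without diabetic saline replicate 1, 2 or 3. ATP synthase had 4 calls without non-diabetic saline replicate 1, and 5 when non-diabetic replicate 2 or diabetic replicate 3 was removed.

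Genes that feed the chain were affected in part. In the tricarboxylic acid cycle 7 of 19 tested enzymes rose (median log2 difference 0.47). Idh2, the NADP-dependent isocitrate dehydrogenase of mitochondria, had 79.2, 50.8 and 69.8 normalized counts in the non-diabetic and 133, 107, 116 and 136 in the diabetic libraries (log2 0.89, SE 0.20, adjusted p = 0.0099), and was named after its values were known. With non-diabetic replicate 2 left out its adjusted p was 0.0611. Citrate synthase, Cs, which opens the cycle, had a log2 difference of 0.24 and did not pass. The count for the cycle was 2 without non-diabetic saline replicate 1 or 2 and 4 without non-diabetic saline replicate 3 or diabetic saline replicate 1 or 3. By contrast, none of 34 mitochondrial ribosomal proteins and none of 22 genes of mitochondrial import and dynamics passed the limma test, with medians of 0.25 and 0.17. DESeq2 and edgeR also called none, and 4 and 0 genes had an unadjusted p under 0.05.

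For fuel use, 8 of 35 genes of fatty acid oxidation and PPAR targets rose (median 0.44), and the count was 4 without non-diabetic saline replicate 2. Oxct1, which activates ketone bodies for oxidation, had 129, 134 and 126 normalized counts in the non-diabetic and 301, 232, 235 and 221 in the diabetic libraries (log2 0.91, SE 0.18, adjusted p = 0.003). Pdk4, the kinase that holds back pyruvate oxidation, went from 111, 54.4 and 135 to 276, 195, 221 and 281, with non-diabetic saline replicate 2 the lowest. Ldhb, the lactate dehydrogenase subunit of oxidative tissues, was the only 1 of 29 genes of glucose uptake and glycolysis called: it went from 198, 155 and 199 to 369.6, 311, 361 and 381 (1.93-fold, adjusted p = 0.0003). Acss1, which makes acetyl-CoA from acetate in mitochondria and was in no list, rose 2.36-fold. Apoe, an apolipoprotein, had 45.8, 46.3 and 41.1 against 68.8, 86.1, 93.9 and 138 normalized counts (log2 1.06, SE 0.23).

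Of 19 markers of the loop of Henle and distal tubule 8 rose (median log2 difference 0.61). The count was 5 with non-diabetic replicate 2 or diabetic replicate 3 left out. Slc12a3, the thiazide-sensitive sodium chloride cotransporter, had 543, 87.97 and 529.8 normalized counts in the non-diabetic and 1706, 986, 1239 and 1053 in the diabetic libraries (log2 2.05, SE 0.43, adjusted p = 0.0061). Non-diabetic saline replicate 2 was far below the others, and DESeq2 did not call the gene (adjusted p = 0.097). Calb1, a calcium buffer of the distal convoluted tubule, went from 89.8, 35.4 and 122 to 410.4, 256, 379.9 and 421 (4.88-fold). Markers of the thick ascending limb in this list went both ways without a call. The potassium channel Kcnj1 was at 0.85, Ppp1r1a at 0.82, Egf at 0.22, uromodulin (Umod) at -0.76 and the cotransporter Slc12a1 at -0.79 on the log2 scale. With the term for glomerular markers Umod (log2 -1.53, adjusted p = 0.00064), Slc12a1 (-2.02, 1.8e-05) and Egf (-0.72, 0.021) were called lower. They were also called lower with the distal term (8.2e-06, 0.00018 and 0.0071). That term is the mean of this same list and includes these genes, so it is no separate check on them.

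Subunits of the Na,K-ATPase were among the genes that rose. Atp1b1, the beta subunit, went from 789, 456 and 789 to 1256, 966, 1298 and 1245. Fxyd2, the regulatory subunit and a gene picked out once the values were known, went from 116, 107 and 126 to 326, 276, 329.9 and 290.3 (2.61-fold, adjusted p = 6.1e-05). Neither had overlapping groups, but both were chosen from these same values. In the collecting duct Aqp2, the vasopressin-regulated water channel, rose 1.86-fold, from 427, 364 and 562 to 648, 844, 1145 and 744, and the sodium channel subunit Scnn1a rose 1.9-fold. Krt7, a keratin of ducts and of parietal epithelium, completed the 3 of 22 collecting duct markers called, and its call held only without diabetic saline replicate 2 or non-diabetic saline replicate 3 among the fits that left out 1 library.

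Kl, which encodes Klotho, the co-receptor of FGF23 made in the distal tubule, was singled out after its values were seen. It had 173, 108 and 229 normalized counts in the non-diabetic and 469.6, 357, 449 and 365 in the diabetic libraries (log2 1.32, SE 0.24, adjusted p = 0.0016). Slc16a7, a transporter of lactate and ketone bodies outside the lists, rose 3.62-fold, and Kng2, a kininogen, 3.49-fold, although DESeq2 did not call Kng2 (adjusted p = 0.12). In both genes non-diabetic saline replicate 2 was the lowest library. Of 29 tested proximal tubule markers 4 fell and none rose, with 1 higher and 5 lower at an unadjusted p under 0.05. Of these only Cyp2d22, a cytochrome P450, also passed in every fit that left out 1 library: 78.6, 73.5 and 66.1 normalized counts against 24.8, 19.4, 18.1 and 26.6 (log2 -1.68, SE 0.27, adjusted p = 0.0005). The list's median log2 difference ran from -0.72 to 0.17 over those fits, and its count was 1 when non-diabetic replicate 2 or diabetic replicate 3 was left out. It was 2 when diabetic replicate 4 was.

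The mitochondrial and tubular genes can be set beside the tubule markers of the libraries, which differ by segment. The mean log2 value of the 19 distal markers was 6.50, 5.21 and 6.59 in the non-diabetic and 7.21, 6.45, 6.86 and 7.01 in the diabetic libraries. Diabetic saline replicate 2 lay within the non-diabetic range. The mean of the tested proximal tubule markers was 5.25, 6.30 and 4.67 in the non-diabetic and 5.11, 5.78, 4.34 and 4.875 in the diabetic libraries. For the collecting duct it was 6.29, 5.69 and 6.48 against 6.44, 6.265, 6.69 and 6.38. In both of these lists the groups overlapped. In a fit with the distal mean as a term, chosen after the data were seen, 5 genes of complex I, 2 of complexes II and III, 2 of complex IV, 3 of ATP synthase and 1 of the tricarboxylic acid cycle were called. The medians of the same lists were 0.58, 0.52, 0.53, 0.52 and 0.38. Under the term for glomerular markers the calls numbered 3, 1, 2, 1 and 0. Fxyd2 (adjusted p = 0.00049 with the distal term), Cox5b (0.00051) and Ldhb (0.0052) were still called, and Atp1b1 (0.13) was not.

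**Figure D3:**
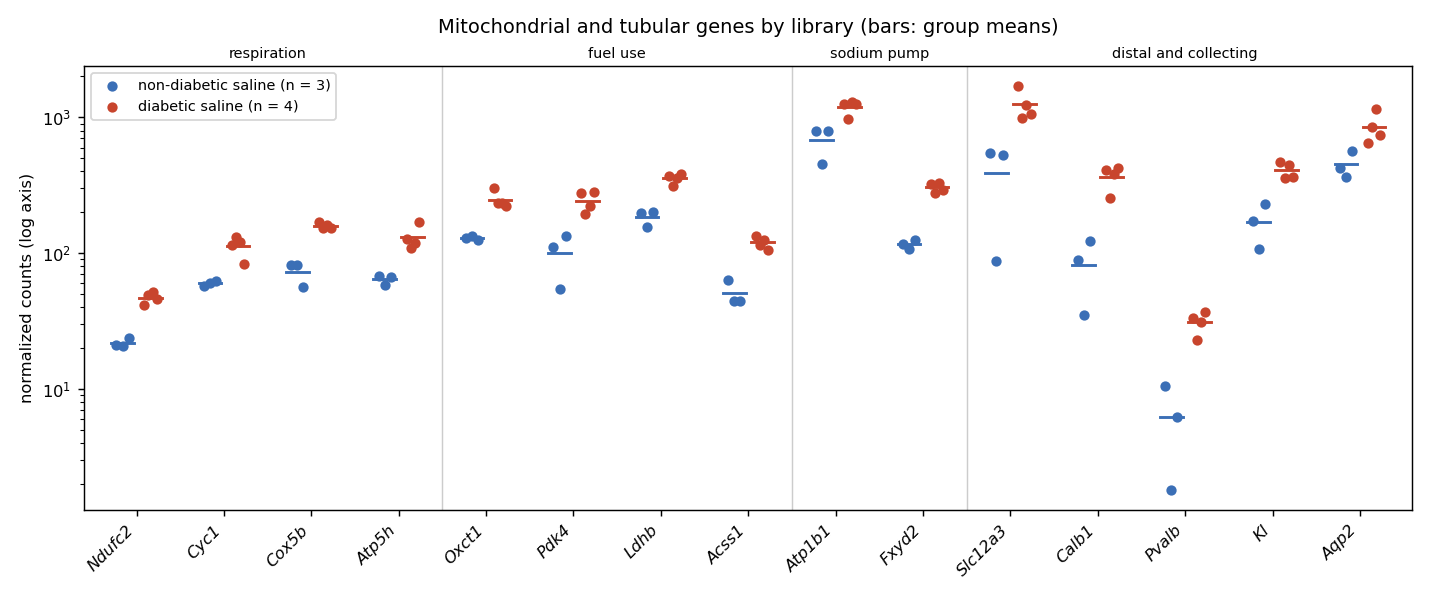
Normalized counts (log axis) of genes of respiration, fuel use, the sodium pump, and the distal tubule and collecting duct. Points are libraries and bars group means; most genes were chosen for groups that do not overlap, and non-diabetic saline replicate 2 stands lowest for Slc12a3, far below every other library.

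Transcript length also moved with the groups. Over 7747 tested genes with an annotated length, the slope of each library's deviation from the gene's mean was 0.109, 0.100 and 0.106 log2 units per doubling of length in the non-diabetic libraries. In the diabetic libraries it was -0.019, -0.038, -0.075 and -0.023, so the groups did not overlap. The median length was 2546 bases for genes that rose, 5302 for genes that fell and 3574 for all tested genes. In the shortest quartile 7.01% of genes rose and 0.67% fell, and in the longest 1.55% rose and 4.03% fell. What part length has in any one difference was not tested. After adjustment of every library for length and GC content, which was added after the data were seen, 238 genes rose and 106 fell, of which 222 and 80 were called without the adjustment too.

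**Figure D4:**
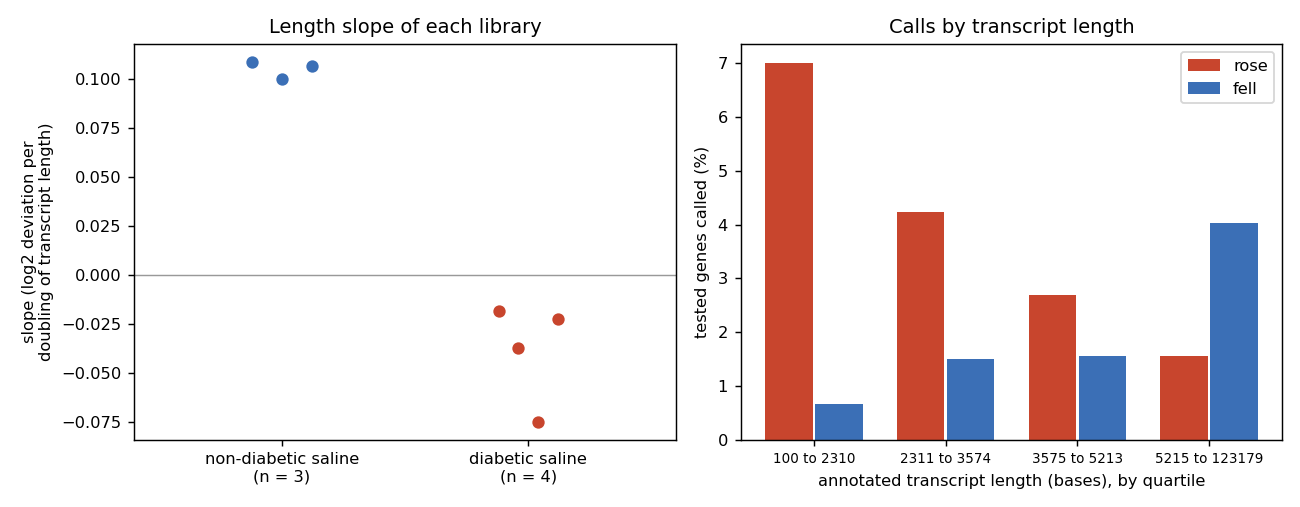
Left, the slope of log2 deviation on transcript length for each library; the non-diabetic libraries lie at 0.100 to 0.109 and the diabetic libraries at -0.075 to -0.019. Right, the share of tested genes that rose or fell in each quartile of annotated transcript length, from 7.01% rising among the shortest to 4.03% falling among the longest.

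Respiratory subunits are short, with a median length of 983 bases in complex I and 752 in complex IV. With the adjustment their medians were 0.43 and 0.48 and the calls numbered 3 and 1, with 1 in complexes II and III, 3 in ATP synthase and 3 in the tricarboxylic acid cycle. Cox5b stayed at 0.79 (adjusted p = 0.0055), while Uqcrb, a complex III subunit, had 0.77 without and 0.23 with it (adjusted p = 0.46). The 74 tested proteins of the cytosolic ribosome are similarly short, with a median of 942 bases. Their median log2 difference was 0.11 without the adjustment and -0.19 with it, and none was called by limma, edgeR or DESeq2, while 3 had an unadjusted p under 0.05 without it. The lists of fatty acid oxidation and of the distal tubule had 8 calls each with and without the adjustment.

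Genes of vessels and of Notch signalling were among those that fell. Notch1, the receptor that shapes vessel sprouting, had 612, 559 and 586 normalized counts in the non-diabetic and 318, 312, 307 and 335 in the diabetic libraries. It fell by 0.88 on the log2 scale (SE 0.12, adjusted p = 0.0001), and the libraries of each group lay close together. Its ligand Dll4 was at 55.1, 36.3 and 53.6 against 17.6, 24.99, 21.5 and 19.5 (log2 -1.16, adjusted p = 0.013). Leaving out non-diabetic saline replicate 1 ended its call (adjusted p = 0.0802), as did leaving out replicate 3 (adjusted p = 0.0596). Plxnd1, a semaphorin receptor of endothelium, went from 179.5, 166 and 166 to 107, 98.1, 97.3 and 90.3 (1.73-fold lower, adjusted p = 0.003). These were the 3 of 27 genes called in the list of VEGF, angiopoietin and Notch signalling, whose median log2 difference was -0.32. Without diabetic saline replicate 2 the count was 5.

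Nos3, the endothelial nitric oxide synthase, had 160.3, 177 and 171 normalized counts in the non-diabetic and 99.99, 79.6, 90.4 and 81.4 in the diabetic libraries (log2 -0.94, SE 0.17, adjusted p = 0.0012). It was called with the term for glomerular markers (adjusted p = 0.015) and with the adjustment for length and GC content (adjusted p = 0.0038), as was Notch1 (0.00035 and 0.0043). Nos3 is itself among the markers averaged in that term. Adm, the vasodilator peptide adrenomedullin, was the only other gene called of 19 vasoactive genes (191, 297 and 207 against 141.6, 142.5, 134 and 95.6, adjusted p = 0.036). Its call was lost in every fit that left out 1 library except that without diabetic saline replicate 2. Rasip1, which endothelial cells need to form lumens and which was outside the lists, fell by 0.76 on the log2 scale, from 252, 286 and 268 to 178, 198, 140.4 and 124. Of 34 endothelial markers 3 fell, Nos3, Egfl7 and Mmrn2, with a median of -0.32 over the list, against 1 fall without non-diabetic saline replicate 1 or 2 and 5 falls with diabetic replicate 2 removed. Nos3 was the only 1 of the 3 called in every fit that left out 1 library.

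Podocyte markers were lower with less certainty for single genes. Of 38 tested markers 8 fell and none rose, with a median log2 difference of -0.32, and none of the 8 was called in every fit that left out 1 library. Magi2, a scaffold of the slit diaphragm, had 136, 178 and 122 normalized counts in the non-diabetic and 63.2, 97.2, 76.7 and 65.5 in the diabetic libraries (log2 -0.93, SE 0.21, adjusted p = 0.01), and adjusted p = 0.0652 without non-diabetic saline replicate 2. Wt1, the podocyte transcription factor, had 159, 239 and 139.6 against 77.6, 118, 109 and 122, with the highest value in non-diabetic saline replicate 2, without which adjusted p = 0.241. The number called was 1 without that library and 3 without diabetic saline replicate 1 or non-diabetic saline replicate 1. It was 5 without diabetic saline replicate 3. With the term for glomerular markers, which includes these genes, none fell and the median was -0.03, and with the length and GC adjustment 5 fell and the median was -0.31. The sum over 40 podocyte genes was 13008 to 17152 normalized counts in non-diabetic and 9203 to 12902 in diabetic saline. Fewer podocytes and less RNA per podocyte cannot be told apart.

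Genes around TGF-beta went in both directions. Ctgf, a matricellular target of TGF-beta and YAP, had 266, 330.1 and 282 normalized counts in the non-diabetic and 109.6, 159, 208 and 163 in the diabetic libraries (log2 -0.90, SE 0.19, adjusted p = 0.0055). Ltbp4, which stores latent TGF-beta in the matrix, went from 68.7, 89.8 and 92.2 to 28.8, 42.6, 49.1 and 23.01 (2.37-fold lower). Neither was called with the term for glomerular markers (adjusted p = 0.14 and 0.087). Inhbb, which encodes the beta B subunit of activins, had 6.81, 10.9 and 7.48 against 71.2, 137, 88.7 and 44.3 normalized counts (log2 3.11, SE 0.32, adjusted p = 1.1e-06). These 3 were the calls among 31 genes of the TGF-beta, BMP and activin list, whose median was -0.26.

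Basement membrane and matrix genes had 1 call among 35, Col12a1, a fibril-associated collagen, at 77.4, 115 and 107 normalized counts in the non-diabetic and 145.6, 242, 232 and 230.1 in the diabetic libraries (2.1-fold, adjusted p = 0.0032). The median of this list was -0.02. Among 24 proteases and inhibitors 2 rose and 1 fell. Serpine2, an inhibitor of plasminogen activation, rose and the aggrecanase Adamts5 fell, but neither was called in every fit that left out 1 library. Serpine2 was lost without diabetic saline replicate 2 or 3 or non-diabetic saline replicate 1 or 3. Adamts5 was called only without diabetic saline replicate 2 or 3. In the mesangial list Sfrp2 and Mcam fell and Serpine2 rose among 22 genes; without non-diabetic saline replicate 2 neither Sfrp2 (adjusted p = 0.0528) nor Mcam (adjusted p = 0.0652) passed.

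Most genes that fell, 121 of 150, were in no list. The naming rule took the largest falls, and the order in which they follow was chosen after their values were seen. Dock4, an activator of Rac and Rap GTPases, had 73.7, 97.04 and 84.8 normalized counts in the non-diabetic and 34.4, 42.6, 31.9 and 28.3 in the diabetic libraries (log2 -1.29, SE 0.20, adjusted p = 0.00034). Srgap1, which inactivates small GTPases and is known from podocyte foot processes, went from 257, 348 and 279 to 123, 199, 127 and 154 (1.97-fold lower). Wipf3, a partner of the WASP family, fell by 0.93, Mtss1, which couples membrane curvature to actin, by 0.98, and Nav1, a cytoskeletal guidance protein, by 0.90 on the log2 scale. Fhod1, an actin-bundling formin named after its values were seen, went from 40.9, 41.7 and 38.6 to 17.6, 14.8, 18.9 and 19.5. The choice of these genes required groups that do not overlap.

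Others were taken from the largest falls by the same rule. Speg, a muscle protein kinase, had a log2 difference of -1.22, and Arl4d, a small GTPase, of -1.02. Map3k11, a kinase upstream of JNK, was at -0.99, C2cd2l, a lipid transfer protein, at -0.96 and Ankrd33b at -0.94. Among genes named after their values were seen, Tet3, which oxidizes methylated cytosine, had 393, 397 and 418 normalized counts in the non-diabetic and 268, 246, 241 and 266 in the diabetic libraries (1.58-fold lower, adjusted p = 0.0027). Cited2, a transcriptional co-regulator, went from 281, 332 and 266 to 176, 186, 195 and 135, and Rusc2, an adaptor of vesicle traffic, from 332, 330.1 and 295 to 179, 184, 160.2 and 188. Syne1, a giant nuclear envelope protein with a transcript of 27908 bases, fell by 0.70 on the log2 scale, and its adjusted p was 0.2 once length and GC content were taken into account. The value for Tet3 in that fit was 0.059 and for Nav1 0.058, against 0.00095 for Dock4 and 0.018 for Fhod1.

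**Figure D5:**
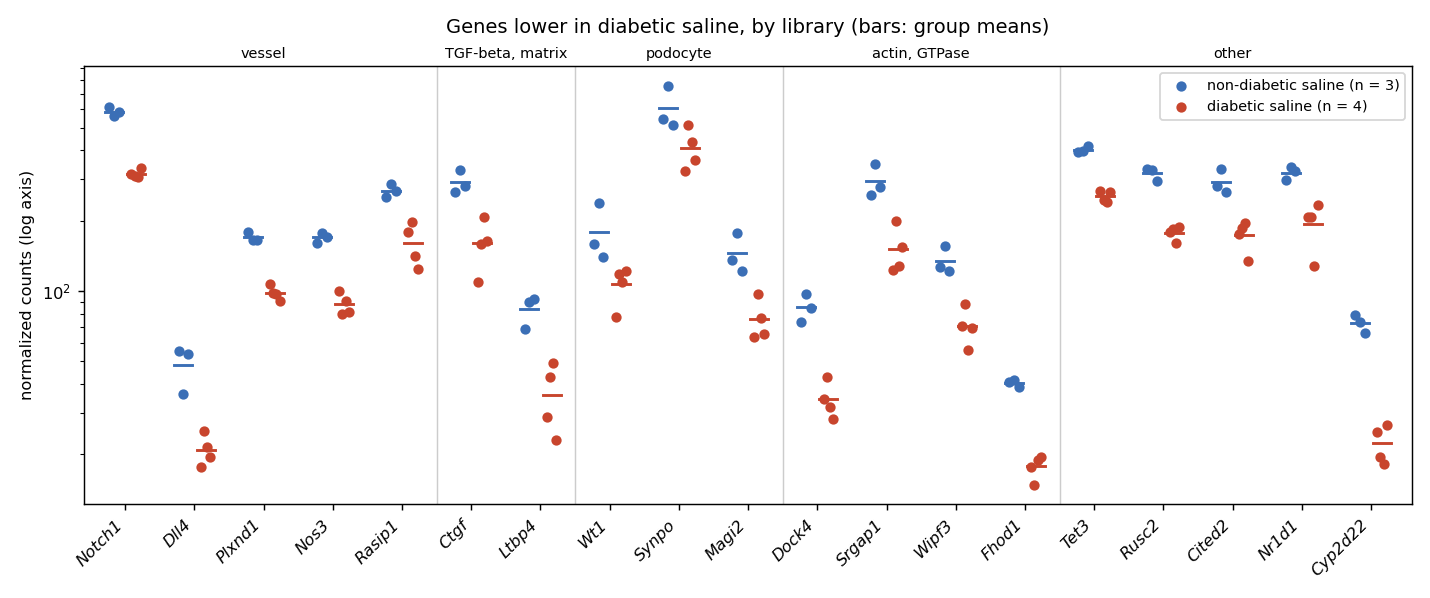
Normalized counts (log axis) of genes of vessels, TGF-beta and matrix, podocytes, actin and small GTPases, and other functions. Points are libraries and bars group means; Notch1 shows tight groups at 559 to 612 and 307 to 335, and Wt1 and Magi2 have their highest value in non-diabetic saline replicate 2.

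Stress pathways had few calls. Of 25 genes of the unfolded protein and integrated stress responses, Trib3, a pseudokinase induced by ATF4, and Ppp1r15a, which restores translation, fell. Trib3 had 25.4, 20.9 and 34.9 normalized counts in the non-diabetic and 10.4, 10.2, 11.2 and 8.85 in the diabetic libraries (adjusted p = 0.014), and Ppp1r15a had 479, 379.99 and 504 against 292, 238, 293 and 398 (adjusted p = 0.034). Neither passed without non-diabetic saline replicate 1 or 3, and Trib3 alone did when diabetic replicate 1, 2 or 3 was removed. Without non-diabetic saline replicate 2 the list had 3 falls. In the list of p53 targets and cell cycle genes 2 of 19 rose and 1 fell. Ccng1, cyclin G1, a p53 target, rose 2.14-fold (adjusted p = 0.0059, and 0.0506 without non-diabetic replicate 1). Ccnd1, cyclin D1, rose 1.47-fold (adjusted p = 0.033), a call that held only without diabetic replicate 1 among the fits leaving out 1 library. Gadd45a, a p53 target that responds to DNA damage, went from 294, 301 and 292 to 218, 171, 194 and 191 (1.53-fold lower, adjusted p = 0.0097). Among 29 antioxidant and oxidant genes the metallothionein Mt1 (1.88-fold, adjusted p = 0.025) and the peroxiredoxin Prdx5 (1.52-fold, adjusted p = 0.024) rose. Mt1 was lost when diabetic replicate 3 or 4 or non-diabetic replicate 1 or 2 was left out, and Prdx5 when diabetic replicate 3 or 4 or non-diabetic replicate 1 was. Nr1d1, the clock repressor REV-ERB alpha, went from 297, 338 and 327 to 207, 207, 128 and 234 and was the only 1 of 14 clock genes called (adjusted p = 0.01). Sox4, a transcription factor of kidney injury, rose 1.82-fold as the only call among 20 injury genes.

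No gene passed the limma test in the lists of insulin and IGF signalling (25 tested), heat shock proteins (17), immediate-early genes (28), glucocorticoid-responsive genes (15), cholesterol synthesis (12), translation factors (34) or splicing factors (36). The cholesterol genes had a median log2 difference of 0.49, with 10 of 12 positive, and the splicing factors of -0.22, with 5 of 36 positive. At an unadjusted p under 0.05 these 7 lists held 1, 0, 2, 2, 3, 1 and 1 higher and 1, 3, 9, 2, 0, 0 and 9 lower genes in the order given. Neither DESeq2 nor edgeR called any of them, except that edgeR called 1 translation factor higher. Without diabetic saline replicate 4, in which Hspa1a was far above the other diabetic libraries, 4 heat shock genes fell. Counts of 1 remained for complement (C4b, 3.71-fold), lysosome (Ctsd, 1.58-fold), the hexosamine pathway (Gfpt2, 1.92-fold) and long non-coding RNA (Kcnq1ot1, 2.06-fold lower), and each of these calls ended when certain libraries were left out. These were non-diabetic saline replicate 3 or diabetic saline replicate 2 for C4b, non-diabetic saline replicate 2 for Ctsd, and every library but diabetic saline replicate 4 and non-diabetic saline replicate 3 for Gfpt2. For Kcnq1ot1 they were non-diabetic saline replicates 1 and 3 and diabetic saline replicates 2 and 3.

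The lists held 153 of the 301 genes that rose. The following were singled out from the rest after their values were seen, and each was called in all 7 fits that left out 1 library. Xdh, which makes uric acid and can release oxidants, had 17.95, 28.1 and 22.4 normalized counts in the non-diabetic and 49.6, 71.3, 69.8 and 53.1 in the diabetic libraries (log2 1.38, SE 0.21, adjusted p = 0.00028). Nampt, the rate-limiting enzyme of NAD salvage, went from 68.1, 89.8 and 62.3 to 132, 141.6, 190.4 and 117. Stc1, a secreted glycoprotein that acts on mitochondria and calcium, rose 2.45-fold, and Itgb3, the integrin beta 3 subunit, rose 2.03-fold. Serpina3g, an intracellular protease inhibitor with close paralogs, went from 22.3, 28.1 and 26.2 to 99.99, 176, 117 and 70.8 (4.2-fold). Slc15a3, a peptide transporter of endolysosomes, rose 3.65-fold, Cyp1b1, a cytochrome P450, 2.01-fold, and Sostdc1, an antagonist of BMP and Wnt signals, 2.83-fold.

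The libraries carry title numbers that fall into 2 sets, and nothing in the labels says what the numbers mean. One non-diabetic (replicate 3) and one diabetic library (replicate 4) have numbers under 100, and they were used to look at the calls of the other 5 libraries. Of 272 genes that rose in the fit without this pair, 247 were also higher in the diabetic library of the pair, and of 94 that fell 87 were lower. Of all tested genes 49.9% were higher in it. The median log2 difference of the 272 genes was 1.25 in the set of numbers of 100 and over and 0.79 in the pair. Rsad2 differed by 2.95 in the pair, Irf7 by 1.85, Cd274 by 1.95, Notch1 by -0.81 and Nos3 by -1.06, with no replicate check for these single differences.

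Esm1, the secreted endothelial proteoglycan that the series delivers by plasmid to mice not compared here, was below the filter on low values. It had 4, 2 and 0 reads in the non-diabetic and 4, 1, 2 and 1 in the diabetic saline libraries and was not tested.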

How the data were processed

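RNA of isolated glomeruli was sequenced in 10 libraries, and the 7 saline libraries were compared. The authors deposited 1 table of signal values, counts per gene divided by a size factor per library (normalized counts). Per the submitters' processing notes, Trimmomatic 0.36, STAR 2.5.3a, genome build mm9, DESeq2 1.28.1 and R 4.0.2 were used. For the read counter, annotation and strandedness the sources used here name nothing, so reads of antisense partners and paralogs may be shared. Of the 12934 row names 58 matched no RefSeq name and 19 had been turned into dates.

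Values were taken as log2(value + 1). Genes with at least 10 in at least 3 of the 7 libraries were tested with limma 3.58.1 (trend) in R 4.3.3, in a fit over all 10 libraries that share 1 estimate of spread, with Benjamini-Hochberg adjustment and a threshold of 0.05. Whole reads were recovered for 100% of 129340 values (tolerance 0.001 reads); edgeR 4.0.16 on them called 324 genes higher and 191 lower, and DESeq2 1.42.0 called 266 and 141. Counting intervals and floors cover counting error only. Pairs of replicates differed by more than sampling noise (chi-square over degrees of freedom 1.89 to 4.64, 7780 genes).

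Members and lists were chosen with earlier results of these data known. Named genes were the 15 largest rises and 15 largest falls among calls that passed in every fit leaving out 1 library and showed no overlap, if their higher group averaged 50 or more, and up to 4 such members per list. Where a list had none, up to 2 members were taken as values, and other genes were added after their values were seen. The length and GC adjustment and the distal marker term were also added then. The fits were tested on simulated data. Transcript lengths and GC content came from GENCODE transcripts, and promoters from a RefSeq table. Some genes are not reported here.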

Additional observations from a re-analysis of the deposited data

Results flagged for a closer look

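In 4 named genes 1 diabetic saline library stood apart from the other 3 by a gap that exceeded Dixon's 95% critical value for 4 samples. Chance gives such a gap in about 1 in 20 groups, and 164 genes were looked at. Hspa1a, an inducible heat shock protein, had 950.7 normalized counts in diabetic saline replicate 4 against 120 to 225.7 in the others. Col12a1 had 145.6 in diabetic saline replicate 1 against 230.1 to 242.5. Ifi27l2a had 19.2 in diabetic saline replicate 1 against 37.18 to 39.8. Atp1b1 had 966.2 in diabetic saline replicate 2 against 1245 to 1298.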

How the results depend on the processing

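The number of genes that rose was 301, and it was 189 in limma without trend and 194 among genes with a mean of at least 50. With a term for the glomerular marker mean it was 158, and with a term for the distal marker mean, added after the data were seen, 184. The number that fell was 150, and in the same settings except the filter it was 65, 80 and 71. Without the 2 libraries with title numbers under 100 it was 94. Leaving out 1 library gave 202 to 299 rises and 68 to 151 falls. Other settings stayed within 1.5 times: pseudocount 5, no filter, a common total, edgeR, DESeq2, the 7 libraries alone and the length and GC adjustment. A common total moved the median of all genes by -0.09 on the log2 scale.

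Of 133 called genes that are named, none changed sign in any setting, and 82 kept the call with the glomerular marker term. Among named genes without a call, Srebf2 was at -0.00367 with that term and Mt2 at -0.0169 with the distal term. Ddx3y was at -0.0672 after the length and GC adjustment, -0.0295 with a common total and -0.0446 without the 2 libraries under 100, and ran from -0.0435 to 0.164 when 1 library was left out. Neat1 was at 0.00953 after the length and GC adjustment and ran from -0.568 to 0.0622. The cause of these shifts was not tested.

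No paired analysis was possible because replicate numbers follow the order of the records. With a term for the 2 sets of title numbers 339 genes rose and 196 fell. With 338549 to 962321 reads per library outside 3 abundant RNAs, small differences of low genes were not detectable at this depth. Genes below the filter were fitted only in the setting without it.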
